A study of Mus musculus with 19 samples.

Results

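FLT3-ITD leukemia with intact Dnmt3a was compared with normal thymocytes across all genes. The comparison used 5 of the 17 libraries in the series: 3 leukemias and 2 control samples, taken by the library names of the series' table of gene counts. FLT3 is a receptor tyrosine kinase of early blood progenitors, and an internal tandem duplication (ITD) in it leaves the kinase active without its ligand. C57BL/6 donor marrow was transduced with a retrovirus (MSCV, a murine stem cell virus vector) and given to lethally irradiated recipients, from which CD4+CD8+ cells of donor origin were later sorted. Both groups were Mx1-cre+;Dnmt3a+/+, so the controls carried the Cre transgene, driven by the interferon-inducible Mx1 promoter, too, and both had the normal gene for Dnmt3a, a de novo DNA methyltransferase. The control vector expressed GFP alone (MSCV_GFP) and the leukemia vector expressed FLT3-ITD with GFP (MSCV_FLT3-ITD-GFP). In both vectors the viral promoter, not the Flt3 promoter, drives the transgene, and the human disease it stands for is mostly myeloid whereas these leukemias carried T cell markers. Both GFP samples were thymocytes from recipients of Sca1+-enriched marrow, each sequenced in 2 technical runs that share 1 column. Leukemia 1 was taken from the thymus after transplantation of Sca-1-enriched marrow, leukemia 2 from the bone marrow after ckit-enriched marrow, and leukemia 3 from the thymus after whole marrow. Age, sex and the interval from transplant to collection are not given in the labels, and the labels call the samples biological replicates without tying each to an animal. The p-values therefore measure a spread between samples, estimated in 1 fit over all 17 libraries of the series and not from these 5 alone.

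CD4+CD8+ (double-positive) thymocytes have just rearranged their T cell receptor alpha chains and are waiting for a receptor signal; most have stopped dividing and die without one. The stage before it depends on Notch1, a receptor whose cleaved intracellular part joins the DNA-binding protein RBPJ and turns on genes such as Hes1, Dtx1 and Il2ra, and on the pre-T cell receptor. FLT3-ITD signals through STAT5, a transcription factor that turns on its own inhibitors Cish and Socs2 and represses Bcl6, and through the RAS-MAPK cascade.

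Levels are given in CPM, estimated fragment counts scaled to the library size and to a total of 1e+06. A log2 difference is leukemia minus GFP from edgeR's quasi-likelihood fit, its SE is the standard error, and a gene is said to rise, fall or pass at a Benjamini-Hochberg adjusted p below 0.05 over the 15508 genes tested. Totals were 25034309 and 25331908 counts in the GFP libraries and 20015543, 16830729 and 16295347 in leukemias 1, 2 and 3. Across 9939 genes the GFP libraries correlated at r = 0.995 (log2 CPM, a description) and 13 genes differed by more than 4-fold between them. Leukemias 1 and 2 correlated at 0.984 with 113 such genes, although they came from different organs, while leukemia 3 differed from them by more than 4-fold at 396 and 452 genes. Xist, transcribed from the inactive X chromosome, was at 1463 and 1655 CPM in the GFP libraries and at 0.0492, 1.59 and 1234 CPM in leukemias 1, 2 and 3, and the Y-linked Ddx3y had 0 counts in both GFP libraries and was at 164, 187 and 0.0614 CPM in the leukemias. Leukemias 1 and 2 therefore differ from the other libraries in Xist state, which separates them from the controls as the group does. With Xist state as a covariate 126 genes rose and 55 fell, against 209 and 138 in the fit used below. With leukemia 3, the only leukemia that expressed Xist, as a single library against the controls, 134 rose and 19 fell; the spread in that fit comes from the other groups, and the lone library is assumed to vary like them. The part of Xist state and sex in the results was not settled by either fit.

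The leukemias differed from the thymocytes at 347 genes, 2.24% of those tested. Of these, 209 rose (1.35%) and 138 fell (0.89%), and 326 of the 347 differed by at least 2-fold. In all 347 the leukemia libraries lay outside the range of the GFP libraries. Such separation was common whether or not a gene passed: 3240 genes (20.9%) lay higher and 3854 (24.9%) lower in every leukemia than in either GFP library, and the median log2 difference over all genes was 0.03. Leukemia 3 lay more than 4-fold from the median leukemia at 21 of the 347 genes, 20 of them rises, and leukemias 1 and 2 at none. The calls depended on the pair of controls: without GFP library 1, 17 genes rose and 12 fell, and without GFP library 2, 14 rose and 9 fell. Without leukemia 1 the counts were 87 and 37, without leukemia 2 129 and 55, and without leukemia 3 342 and 265. Passing in the full fit and in all 5 fits without 1 library were 21 genes, 12 higher and 9 lower, 17 of them with gene names. Leaving a library out also leaves fewer libraries to set against each other.

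**Figure D1:**
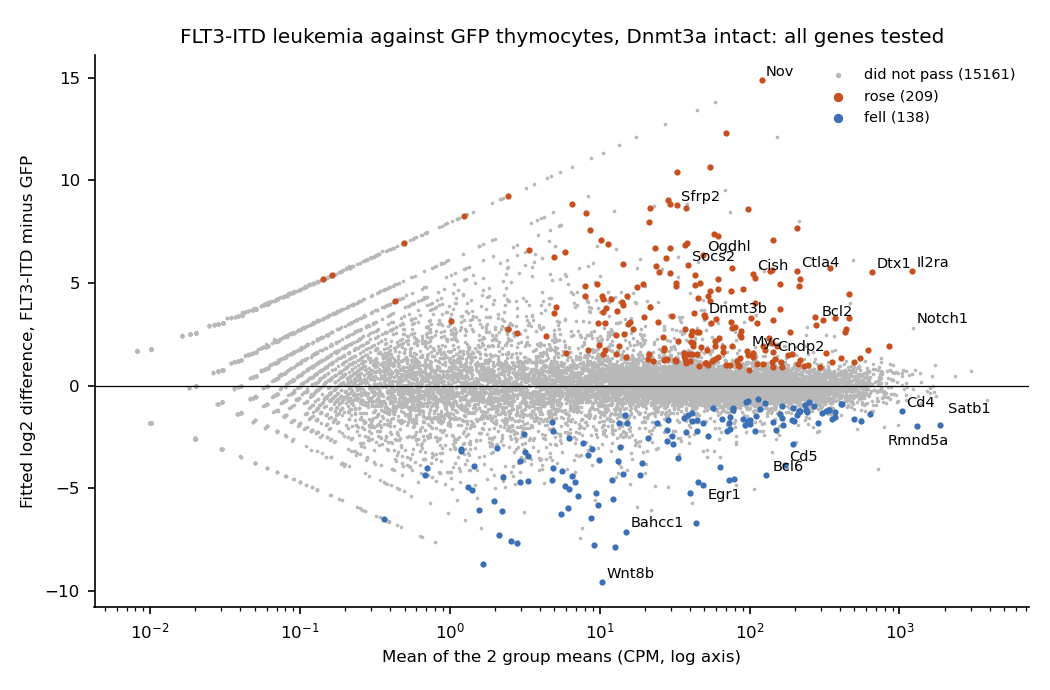
Each point is 1 of 15508 genes, with its level on the x axis (mean of the group means, CPM, log axis) and the fitted log2 difference, leukemia minus GFP, on the y axis. Orange points (209) rose, blue points (138) fell and grey points did not pass; Il2ra and Dtx1 combine a high level with a log2 difference of 5.57 and 5.53.

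Transcripts of a CD4+CD8+ thymocyte were present in the leukemias, most of them at lower levels than in the controls. The cells were sorted for CD4 and CD8, so the presence of Cd4 and Cd8a transcripts was set by the sort. Cd8a, which encodes a CD8 chain, was at 1808 and 1801 CPM in the GFP libraries and at 1182, 1408 and 1612 CPM in leukemias 1, 2 and 3, and its difference of -0.37 (SE 0.55) did not pass (adjusted p 0.77). Cd4 was at 1280 and 1660.5 CPM in GFP and 486, 676 and 701 CPM in leukemia libraries and fell (log2 difference -1.24, SE 0.29, adjusted p 0.044). Rag1 and Rag2, the recombinase that rearranges receptor genes, did not pass at log2 differences of -0.72 and -0.82: Rag1 was at 4796 and 4679 CPM in the GFP libraries and 1820.2, 2883 and 3938 CPM in the leukemias. Dntt, the polymerase that adds nucleotides at receptor joints, was at 1729 and 1841 CPM in GFP and 577, 609 and 1620.5 CPM in leukemia libraries, so that leukemia 3 lay near the controls and leukemias 1 and 2 well below. Of 37 genes listed for double-positive thymocytes, 30 had a negative difference, 26 of them with no overlap between the groups (24.9% of all genes were lower without overlap), and 5 passed, all lower (Bcl6, Cd5, Rmnd5a, Satb1 and Cd4), against 0.89% of all genes. The median difference of the list was -0.82. This list and those below were written with earlier results of these data known. Their shares of calls are therefore descriptions beside the share over all genes, not tests. In bulk samples fewer cells of a type and less RNA per cell cannot be told apart.

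Cd5, Bcl6, Rmnd5a, Satb1 and Nfatc3 fell. CD5 is a surface inhibitor of T cell receptor signalling whose level follows signal strength, and Cd5 (mm9 chr19:10792633-10813464, minus strand) was at 306 and 342 CPM in the GFP thymocytes and at 18.1, 19.5 and 28.5 CPM in the leukemias. All 3 leukemias were near one another and far below both controls (log2 difference -3.88, SE 0.52, adjusted p 0.0022). Bcl6, a transcriptional repressor abundant in double-positive cells (chr16:23965138-23988698, minus strand), was at 238 and 255 CPM in GFP and 10.04, 9.81 and 16.3 CPM in leukemia libraries (log2 difference -4.35, SE 0.81, adjusted p 0.016). Rmnd5a, a subunit of a ubiquitin ligase, fell from 2069 and 2125 to 478, 614 and 498 CPM (log2 difference -1.98, SE 0.29, adjusted p 0.0036). Satb1, an organiser of chromatin needed for thymocyte maturation, fell from 2827 and 3069.7 to 630.3, 752 and 944 CPM (log2 difference -1.93, SE 0.45, adjusted p 0.044). Nfatc3, a transcription factor activated by calcium after receptor signals, fell from 906 and 937 to 254, 382 and 406 CPM (log2 difference -1.41, SE 0.28, adjusted p 0.02). Of these genes and Cd4, only Cd5 passed in each of the 5 fits without 1 library. Of the 6, 1 passed without GFP library 1, 1 without GFP library 2, 2 without leukemia 1, 2 without leukemia 2 and 4 without leukemia 3, with adjusted p from 0.0042 to 0.43.

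Of 25 genes for receptor signalling, Nfatc3 alone passed (4%, against 2.24% of all genes), the median was -0.22, and the kinase gene Lck was at 1656 and 1750.2 CPM in the GFP libraries and 1773, 1612 and 1614 CPM in the leukemias. Cd3e was at 312 and 326 CPM in GFP and 311, 383 and 409 CPM in leukemia libraries, with overlapping groups. Ptcra, the pre-T cell receptor alpha chain of the preceding stage, was at 54.1 and 62.4 CPM in the controls and 474, 449 and 356 CPM in the leukemias, without overlap, but did not pass (log2 difference 2.87, SE 0.90, adjusted p 0.13). Rasgrp1, an activator of RAS downstream of the receptor, was at 821 and 856 CPM in GFP and 127, 192 and 267 CPM in leukemia libraries, and its adjusted p was 0.16. The homing receptor gene Ccr9 stood at 1340.2 and 1375 CPM in the controls and 42.8, 59.2 and 139 CPM in the leukemias (log2 difference -4.08, adjusted p 0.066), and the list of 25 adhesion and migration genes had no member that passed and a median of -0.95. All 8 Gimap genes, GTPases of lymphocyte survival, were lower in every leukemia than in either control, as were 24.9% of all genes. None of them passed (median -1.71).

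Among inhibitory and costimulatory receptors, Ctla4 rose and Cd5 fell. Ctla4, an inhibitory receptor of activated and regulatory T cells (chr1:60965869-60972674, plus strand), was at 11 and 6.12 CPM in the GFP thymocytes and 479, 451 and 294 CPM in the leukemias (log2 difference 5.57, SE 0.89, adjusted p 0.0066). It lost its call without GFP library 1 or 2, at adjusted p of up to 0.17, and passed without any 1 leukemia. Of the 20 genes of this list Ctla4 alone rose and Cd5 alone fell (10% passed, against 2.24% of all genes), 13 were lower without overlap (24.9% of all genes were), and the median was -1.79. The costimulatory receptor Cd28 was at 429 and 417 CPM in the controls and 67.9, 117 and 133 CPM in the leukemias, and did not pass (adjusted p 0.12). Regulatory and mature T cells also express Ctla4. Foxp3, the defining factor of regulatory T cells, was at 4.76 and 3.12 CPM in the controls and 0.246, 0.613 and 1.78 CPM in the leukemias. Over 17 tested genes of single-positive, regulatory and NKT cells, 1 rose (Ctla4) and none fell (5.88% passed, against 2.24% of all genes). Their median was -0.74, and 13 of the 17 had a negative difference. Without overlap, 7 were lower and 2 higher, as were 24.9% and 20.9% of all genes. Their summed levels were 885 and 813 CPM in the controls and 1003, 1029 and 719 CPM in the leukemias. These sums include Ctla4 itself, whose levels are given above.

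The immediate early gene Egr1 and its corepressor Nab2 were among the largest falls of abundant genes. Egr1, induced within minutes of receptor or growth factor signals, was at 154 and 125 CPM in the controls and 7.63, 2.82 and 6.63 CPM in the leukemias (log2 difference -4.61, SE 1.04, adjusted p 0.039). Nab2, which binds EGR proteins and limits them, was at 86.9 and 88.3 CPM in GFP and 2.56, 1.53 and 5.95 CPM in leukemia libraries (log2 difference -4.71, SE 0.64, adjusted p 0.0023) and passed in every fit without 1 library, while Egr1 passed in none of them. Egr2 was at 37.4 and 32.4 CPM in the controls and at 0.148, 0 and 1.6 CPM in the leukemias and lay just outside the threshold (adjusted p 0.054). Fos, another immediate early gene, did not pass and was at 9.85 and 11.5 CPM in GFP and 9.8, 60.5 and 0.982 CPM in leukemia libraries, with leukemia 2 high and leukemia 3 low.

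**Figure D2:**
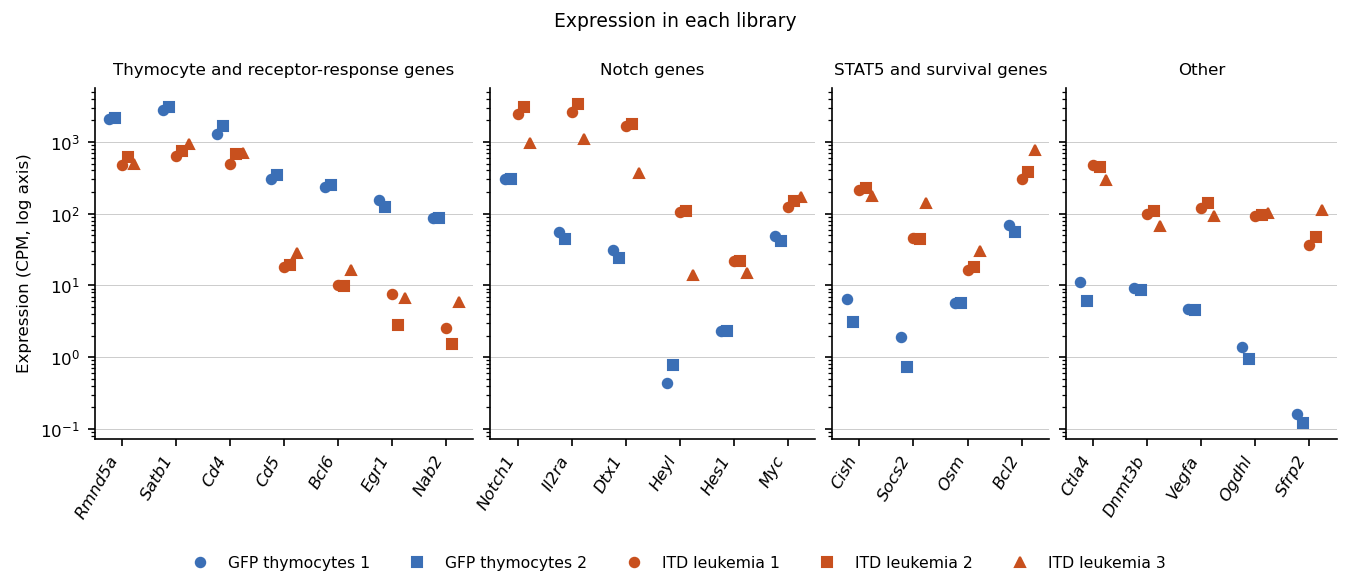
Expression of 22 genes in each library (CPM, log axis); blue symbols are the 2 GFP thymocyte libraries and orange symbols the 3 leukemias, with circle, square and triangle for replicates 1, 2 and 3. The groups are separate for every gene shown, and leukemia 3 is nearer the controls than the other leukemias for Dtx1 and Heyl.

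Il2ra, Dtx1, Heyl, Hes1 and Myc, which Notch can turn on, rose in the leukemias. Il2ra, which encodes CD25 (the interleukin 2 receptor alpha chain) and is normally shut off before the double-positive stage (chr2:11564419-11614821, plus strand), was at 55.4 and 44.9 CPM in the GFP thymocytes and at 2639.9, 3412 and 1116 CPM in leukemias 1, 2 and 3 (log2 difference 5.57, SE 0.98, adjusted p 0.012). Dtx1, a ubiquitin ligase acting on Notch (chr5:121130273-121161678, minus strand), was at 31.2 and 24.2 CPM in GFP and 1682, 1805 and 367 CPM in leukemia libraries (log2 difference 5.53, SE 1.17, adjusted p 0.029). Heyl, a repressor of the HES family, was at 0.44 and 0.77 CPM in the controls and 104, 109 and 13.8 CPM in the leukemias (log2 difference 6.95, SE 1.40, adjusted p 0.023). In both Dtx1 and Heyl leukemia 3 was the lowest leukemia and still far above the controls. Hes1, the classic repressor downstream of Notch (chr16:30065443-30067882, plus strand), was at 2.28 and 2.35 CPM in GFP and 21.6, 21.7 and 14.8 CPM in leukemia libraries (log2 difference 3.06, SE 0.65, adjusted p 0.029). Myc, a driver of growth and a Notch target in T cells (chr15:61816896-61821916, plus strand), rose from 49.5 and 41.3 to 124, 152 and 168 CPM (log2 difference 1.71, SE 0.30, adjusted p 0.012).

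Those 5 were the genes that passed among 24 listed for Notch (20.8%, against 2.24% of all genes), and none fell. The list was not raised as a whole: 12 members were positive and 12 negative, with a median of 0.07. Without overlap, 11 of the 24 were higher and 7 lower, as were 20.9% and 24.9% of all genes. Notch1 itself was at 305 and 305 CPM in the controls and 2436, 3053 and 974 CPM in the leukemias, which did not pass (log2 difference 2.82, SE 0.72, adjusted p 0.061). Notch3 was at 109 and 122 CPM in GFP and 686, 910.3 and 262 CPM in leukemia libraries and did not pass either (adjusted p 0.11). Among targets, Nrarp was at 4.8 and 3.36 CPM in GFP and 16.1, 19.6 and 12 CPM in leukemia libraries (adjusted p 0.44), and Hes5 and Hey1 were below 1 CPM in all 5 libraries. Il7r, another gene linked to Notch in early thymocytes, was at 96.3 and 36.2 CPM in the controls and 1.23, 0.858 and 57 CPM in the leukemias, low in 2 leukemias and within the controls' range in the third. Of the 5 risen genes none passed without GFP library 1 or without GFP library 2, 2 passed without leukemia 1, 3 without leukemia 2 and 5 without leukemia 3, at adjusted p from 0.008 to 0.35.

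Genes of the earliest thymocytes and of progenitors were listed separately. Kit, the stem cell factor receptor, was at 8.12 and 5.06 CPM in the controls and 5.71, 0.368 and 9.39 CPM in the leukemias. Over the list of 28 such genes the median was 1.31, 19 were positive, and Il2ra and Dtx1 passed (7.14%, against 2.24% of all genes). Of the members that did not, the oncogene Tal1 was at 27.8, 0.184 and 0.184 CPM in leukemias 1, 2 and 3, against 0.4 and 0.122 CPM in the controls. Erythroid markers were highest in the same leukemia 1; their part in the Tal1 value was not tested. Cdkn2a, which encodes tumour suppressors often deleted in T cell leukemia, was at 0.72 and 0.203 CPM in the controls and 1.67, 0.552 and 24.9 CPM in the leukemias, high in leukemia 3 alone (adjusted p 0.16).

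Known STAT5 targets were among the genes that passed. Cish, a STAT5-induced inhibitor of cytokine signalling (chr9:107199020-107204292, plus strand), was at 6.52 and 3.08 CPM in the GFP thymocytes and 214, 227 and 178 CPM in the leukemias (log2 difference 5.42, SE 1.05, adjusted p 0.019). Socs2, a second such inhibitor (chr10:94874124-94879491, minus strand), was at 1.88 and 0.729 CPM in GFP and 45.9, 44.7 and 139.5 CPM in leukemia libraries, with leukemia 3 the highest (log2 difference 5.87, SE 1.24, adjusted p 0.029). Osm, the cytokine oncostatin M, rose from 5.6 and 5.71 to 16.1, 17.8 and 30.2 CPM (log2 difference 1.92, SE 0.35, adjusted p 0.014). Bcl2, which blocks apoptosis and is low in normal double-positive cells (chr1:108434756-108610867, minus strand), was at 69.1 and 56.4 CPM in the controls and 305, 385 and 778 CPM in the leukemias (log2 difference 2.96, SE 0.65, adjusted p 0.034). The repressed target Bcl6 fell, as given above. None of these 5 passed without GFP library 1 or 2, and all 5 passed without leukemia 3, with adjusted p from 0.02 to 0.36 over the 5 fits.

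In the 40 genes listed for STAT5 and MAPK outputs, 4 rose and 2 fell (Egr1 and Bcl6). That is 15% of the list, against 2.24% of all genes, and the median was -0.3. Pim1, a kinase induced by STAT5, was at 71.8 and 78.3 CPM in GFP and 145, 190.4 and 145 CPM in leukemia libraries, and Socs3 at 42.9 and 46.4 CPM in GFP and 215, 251 and 193 CPM in leukemia libraries; both were without overlap and neither passed (adjusted p 0.104 and 0.074). Among MAPK feedback genes, Dusp6, a phosphatase of ERK, was at 51.5 and 41.4 CPM in the controls and 21.1, 41.9 and 10.01 CPM in the leukemias, and did not pass. Spry2, Spry4, Etv5 and Dusp4 had negative differences (log2 -3.06, -3.15, -2.35 and -2.29) and were lower without overlap, as was Dusp2. Spry4 was low throughout, at 0.88 and 0.527 CPM in the controls. Spry1, Dusp1 and Dusp5 had positive differences (log2 1.17, 0.89 and 0.74), and of these only Dusp1 was without overlap. Spred1, Spred2 and Etv4 had negative differences with overlapping groups. None of these genes passed. The only BCL2 family member that passed among 17 was Bcl2 (5.88%, against 2.24% of all genes, median 0.12). Bcl2l1, which encodes the BCL-XL survival protein of normal double-positive cells, was at 285 and 371 CPM in GFP and 105, 115 and 201 CPM in leukemia libraries and did not pass (log2 difference -1.23, adjusted p 0.075). Flt3 read from the mouse gene was at 3.72 and 1.78 CPM in the controls and 2.76, 1.53 and 7.49 CPM in the leukemias (log2 difference 0.51, adjusted p 0.74); whether the transgene's reads could be counted there is not known.

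Promoters of the genes that passed are shown where they held STAT letters, because STAT5 is the factor below the introduced kinase. Starts were matched by gene symbol to RefSeq promoters on GRCm38.p6, a later build than the mm9 of the gene models; 70 of 91 named genes matched, and Hes1, Heyl, Myc, Socs2 and Osm were among those without an entry. The 250 bases before each start were searched on both strands for TTCNNNGAA. The named genes that passed with a match were Bcl6, Wnt5b and Cacna1c. Of the risen STAT5 targets above, Cish and Bcl2 had a promoter without the letters, and Socs2 and Osm had no entry. Il2ra also had a promoter without the letters. The capitals mark the matches, and no window overlapped an exon of its gene in GENCODE vM21. The first sequence is the upstream Bcl6 start (chr16:23988853-23989102, minus strand) and the second an internal Bcl6 start (chr16:23981284-23981533, minus strand). Wnt5b is chr6:119467212-119467461 and Cacna1c chr6:118757975-118758224, both minus strand. Each of these windows stands before 1 of 3 starts of its gene, and the other starts held no match.
Bcl6 upstream start: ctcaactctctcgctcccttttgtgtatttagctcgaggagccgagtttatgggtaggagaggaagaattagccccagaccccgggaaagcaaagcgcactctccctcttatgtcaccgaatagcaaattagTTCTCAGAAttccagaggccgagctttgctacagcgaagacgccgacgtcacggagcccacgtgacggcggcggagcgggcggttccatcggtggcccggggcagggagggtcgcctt
Bcl6 internal start: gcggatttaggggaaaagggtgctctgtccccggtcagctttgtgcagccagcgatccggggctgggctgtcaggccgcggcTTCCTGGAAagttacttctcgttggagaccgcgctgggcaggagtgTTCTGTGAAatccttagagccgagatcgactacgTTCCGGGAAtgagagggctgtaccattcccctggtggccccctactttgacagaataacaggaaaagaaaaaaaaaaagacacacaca
Wnt5b: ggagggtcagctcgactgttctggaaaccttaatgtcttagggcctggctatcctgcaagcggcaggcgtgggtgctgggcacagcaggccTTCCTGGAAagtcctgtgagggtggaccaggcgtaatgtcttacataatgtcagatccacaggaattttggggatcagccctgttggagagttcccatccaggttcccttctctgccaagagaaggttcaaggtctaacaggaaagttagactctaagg
Cacna1c: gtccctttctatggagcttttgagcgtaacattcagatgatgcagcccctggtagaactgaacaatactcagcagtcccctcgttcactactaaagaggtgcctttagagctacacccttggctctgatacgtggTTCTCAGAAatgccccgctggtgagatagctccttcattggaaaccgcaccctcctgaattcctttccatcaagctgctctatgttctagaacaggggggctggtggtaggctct
The internal Bcl6 start held 3 matches, beginning 168, 122 and 88 bases before it, and the upstream start held 1, 118 bases before it. Bcl6 fell while Wnt5b and Cacna1c rose.

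The STAT letters stood before risen genes at about the share of all genes. They occurred in 12 of 161 risen genes with a promoter (7.45%), in 5 of 117 fallen genes (4.27%) and in 830 of 11245 tested genes (7.38%). The core RBPJ letters TGGGAA, which can overlap the STAT letters, were found in 21.7% of risen, 21.4% of fallen and 24% of all genes. The EGR letters GCGNGGGCG were found in 16 fallen genes (13.7%), against 7.45% of risen and 9.61% of all genes, and the E-box CACGTG, which MYC can bind, in 9.32%, 9.4% and 9.32% of risen, fallen and all genes. These shares are descriptions of a short window, with no test.

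Of 28 genes for cytokine receptors and their kinases and STAT factors, 2 rose and 2 fell (14.3%, against 2.24% of all genes). The median was -0.26. Besides Il2ra, Epor, the erythropoietin receptor, rose from 0.04 and 0.243 CPM in the controls to 33.7, 25.5 and 1.96 CPM in the leukemias (log2 difference 7.09, SE 1.62, adjusted p 0.0401). Leukemia 3 was the lowest of the 3. Epor also marks erythroid cells, whose other markers were highest in leukemia 1; Slc4a1 was at 222, 6.68 and 1.1 CPM in leukemias 1, 2 and 3, and the part of such cells in the Epor result was not tested. Il6st, the shared signalling chain of the interleukin 6 family including oncostatin M, fell from 284 and 306 to 73, 98.5 and 103 CPM (log2 difference -1.69, SE 0.32, adjusted p 0.017), and Il3ra from 8.12 and 6.73 to 2.31, 1.65 and 2.46 CPM (log2 difference -1.79, SE 0.36, adjusted p 0.022). Epor, Il6st and Il3ra passed neither without a GFP library nor without leukemia 1, and all 3 passed without leukemia 3.

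Among regulators of DNA methylation, Dnmt3b rose and no other gene passed. Dnmt3b, the other de novo methyltransferase (chr2:153475185-153513466, plus strand), was at 9.32 and 8.63 CPM in the GFP thymocytes and 98.3, 109 and 67.8 CPM in the leukemias (log2 difference 3.35, SE 0.48, adjusted p 0.0033). Its call was lost without GFP library 1 or 2. Dnmt3a was at 257 and 250.1 CPM in GFP and 180.2, 238 and 183 CPM in leukemia libraries, with a log2 difference of -0.34 (SE 0.30, adjusted p 0.597). Tet2, which oxidises methylcytosine and is mutated in human leukemia, was at 39.5 and 36.3 CPM in the controls and 1.72, 0.919 and 3.38 CPM in the leukemias and lay just outside the threshold (log2 difference -4.24, adjusted p 0.052). Dnmt1, Uhrf1, Tet1 and Tet3 did not pass. Over the 13 genes the median was 0.12 and 7.69% passed, against 2.24% of all genes.

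Genes of growth mostly had small positive differences. Of 32 genes for ribosome production, many of them MYC targets, 31 were positive and the median difference was 0.8. Without overlap, 30 of those were higher, as were 20.9% of all genes. Only Mybbp1a passed (3.12% of the list, against 2.24% of all genes). It was at 143 and 134 CPM in the controls and 297, 342 and 215 CPM in the leukemias (log2 difference 1.04, SE 0.23, adjusted p 0.036). Mvd, an enzyme of the mevalonate path to cholesterol, was at 17.2 and 15.2 CPM in GFP and 79.2, 61.5 and 64.1 CPM in leukemia libraries (log2 difference 2.08, SE 0.32, adjusted p 0.0058). It was the only 1 of 19 cholesterol genes to pass (5.26%, against 2.24% of all genes), with 18 positive and a median of 0.85. One-carbon genes had a median of 0.72 with none of 18 passing; Shmt2, a mitochondrial enzyme of serine metabolism, was at 70.5 and 55.4 CPM in the controls and 147, 166 and 153 CPM in the leukemias (adjusted p 0.11). The glycine-cleaving Gldc was listed with them at 0.04 and 0.081 CPM in the controls and 14.3, 11.5 and 893 CPM in the leukemias, and did not pass (adjusted p 0.075). Without a GFP library neither Mybbp1a nor Mvd passed.

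Cell division genes gave no call. None of 36 genes of DNA replication and mitosis passed and their median was -0.06. Mki67, a marker of dividing cells, was at 762 and 487 CPM in the controls and 319.5, 494 and 695 CPM in the leukemias. None of 29 cell cycle control genes passed, although E2f2 was at 467 and 488 CPM in GFP and 84.5, 88 and 133 CPM in leukemia libraries (adjusted p 0.069) and Cdk6 at 25.1 and 21.4 CPM in GFP and 48.3, 74 and 70.7 CPM in leukemia libraries (adjusted p 0.18). None of 21 glycolysis genes passed (median 0.33). Of 35 interferon-response genes only Gbp3 passed (2.86%, against 2.24% of all genes). Gbp3 was at 9.48 and 7.7 CPM in the controls and 26.2, 28.4 and 78.8 CPM in the leukemias (log2 difference 2.37, SE 0.57, adjusted p 0.049). It passed in none of the fits without 1 library.

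**Figure D3:**
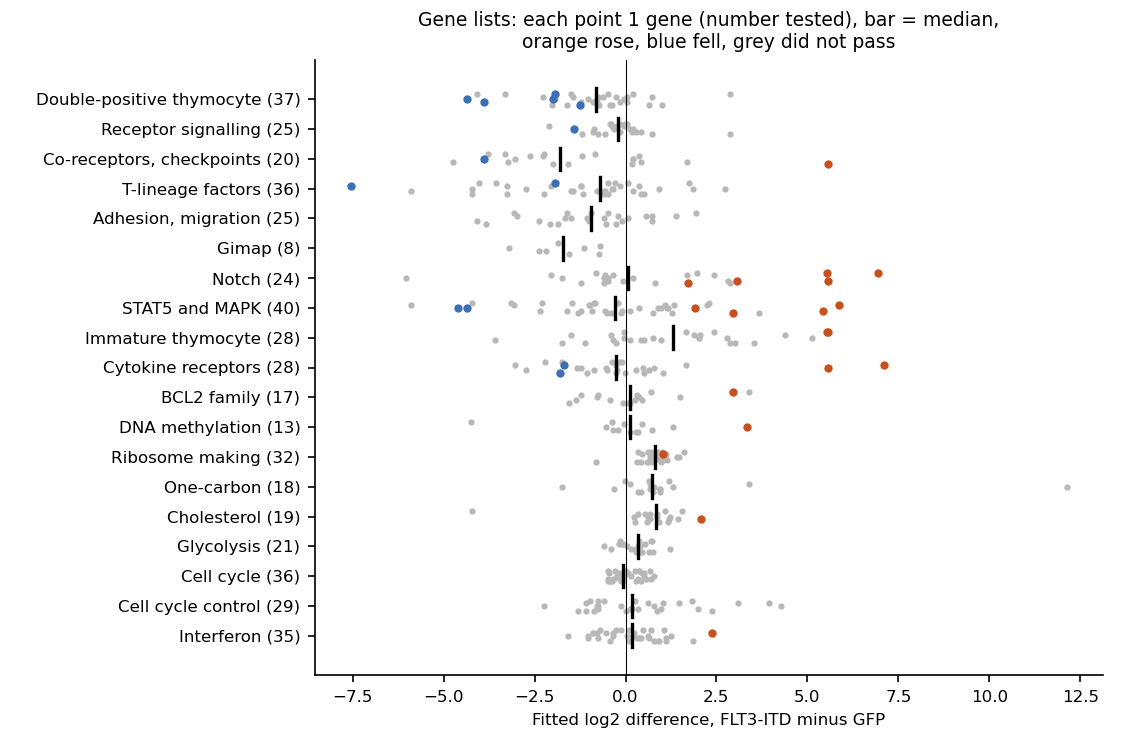
Fitted log2 differences (leukemia minus GFP) of the members of 19 gene lists, 1 point per gene, with the number tested in brackets and a black bar at the median. Orange points rose, blue points fell and grey points did not pass; the Notch and STAT5 lists hold large rises around medians of 0.07 and -0.3.

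The largest differences were at genes nearly silent on 1 side. Sfrp2, a secreted inhibitor of WNT signalling (chr3:83570243-83578236, plus strand), was at 0.16 and 0.122 CPM in the controls and 37.1, 47.4 and 113 CPM in the leukemias, and passed in each of the 5 fits without 1 library (log2 difference 8.78, SE 0.81, adjusted p 0.00022). Nov (also called Ccn3), a secreted matrix protein, had 0 counts in both controls and was at 159, 176 and 391 CPM in the leukemias, at least 3900-fold higher against a floor of 3 counts over the GFP libraries. Necab1, a neuronal calcium-binding protein, had 3 counts in the controls and a ratio of 1850 (95% exact interval of counting error 634 to 8990). Enah, a regulator of actin filaments, had a ratio of 1520 (420 to 12600), with leukemia 3 at 171 CPM and leukemias 1 and 2 at 11.4 and 13.9 CPM. Crtac1, a cartilage protein, and Mum1l1 had ratios of 635 (114 to 25100) and 405 (112 to 3350). The receptor tyrosine kinase gene Egfr was at 0.2 and 0.0405 CPM in the controls and 32.2, 42.3 and 102 CPM in the leukemias (log2 difference 8.84, SE 2.12, adjusted p 0.049), and the call ended in each fit without 1 library.

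Esrp1, an epithelial splicing regulator, was at 0.48 and 0.527 CPM in the controls and 255, 317 and 15.1 CPM in the leukemias (log2 difference 8.58, SE 1.46, adjusted p 0.012), while its paralog Esrp2 went the other way, from 15.6 and 23.1 to 0.197, 0.0613 and 0.737 CPM (log2 difference -5.84, SE 0.97, adjusted p 0.011). Sall3, a developmental zinc finger factor, was at 0.16 and 0.203 CPM in GFP and 95.8, 111 and 20.3 CPM in leukemia libraries (log2 difference 8.64, SE 1.23, adjusted p 0.0032). Ccdc136, Exoc3l4 and the guanine nucleotide exchange factor gene Arhgef10l completed the 12 largest rises among genes of at least 5 CPM in the leukemias, leaving out predicted names, with log2 differences of 8.64, 7.98 and 7.65. Arhgef10l was at 2.08 and 1.99 CPM in the controls and 499, 649.6 and 85.2 CPM in the leukemias, lowest in leukemia 3. Among abundant genes Tbkbp1, an adaptor of the kinase TBK1, was at 0.68 and 0.689 CPM in GFP and 160.4, 142 and 43.9 CPM in leukemia libraries, and Fsd1l at 1.24 and 0.324 CPM in GFP and 128, 149 and 92.3 CPM in leukemia libraries. Of the 12 largest rises, only Sfrp2 passed without GFP library 1 and without GFP library 2, and 8, 8 and 11 passed without leukemia 1, 2 and 3.

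Genes nearly lost in the leukemias included Wnt8b, a WNT ligand at 19.1 and 22.5 CPM in the GFP thymocytes and with 1 count over the 3 leukemias (ratio 1100, interval 197 to 43500; log2 difference -9.57). Wnt5b, another ligand, rose from 5.12 and 5.23 to 52.9, 52.2 and 26.1 CPM (log2 difference 3.08, SE 0.72, adjusted p 0.044). Of 29 WNT genes 2 thus rose (Sfrp2 and Wnt5b) and 1 fell (10.3% passed, against 2.24% of all genes). Wnt5b passed in the fit without leukemia 3 and in none of the other 4. Klra9, an NK receptor gene of a family whose members share sequence, had a ratio of 296 (52.7 to 11700) and Tox3, a relative of the T cell factor Tox, one of 272 (48.3 to 10800). Bahcc1, a chromatin protein with a BAH domain, was at 29.5 and 30.1 CPM in the controls and 0.246, 0.0613 and 0.307 CPM in the leukemias (log2 difference -7.12, SE 0.53, adjusted p 8.6e-05). Gpc2, a heparan sulfate proteoglycan, was at 14.6 and 20.2 CPM in GFP and 0.197, 0.184 and 0.184 CPM in leukemia libraries (log2 difference -6.47, SE 0.89, adjusted p 0.0025); both passed in every fit without 1 library. Pcsk1, a prohormone convertase, and Zcchc12 had log2 differences of -7.88 and -7.74, and Rbm24, Il1rl2, Psd3 and Pcbp3 of -6.27, -5.97, -5.51 and -5.38. Of the 12 largest falls chosen by the same limits (5 CPM in the controls), 2 passed without GFP library 1, 2 without GFP library 2, 2 without leukemia 1, 4 without leukemia 2 and 9 without leukemia 3. Among abundant genes that fell, Dgke, which encodes a diacylglycerol kinase, was at 339 and 349 CPM in GFP and 49.6, 62.1 and 32 CPM in leukemia libraries (log2 difference -2.84, SE 0.36, adjusted p 0.0017) and Dgkg, of the same family, at 70.8 and 84.6 CPM in GFP and 3.35, 2.76 and 0.123 CPM in leukemia libraries (log2 difference -5.21, SE 1.18, adjusted p 0.039). Of other members of that family, singled out after their values were seen, Dgkd also fell (log2 difference -1.71, adjusted p 0.012), and Dgka, at 541 and 668 CPM in the controls and 392, 355 and 135 CPM in the leukemias, did not pass (log2 difference -1.04, adjusted p 0.36). Slc6a19, Nav2, Fam102b and Tdrkh fell with them, by 4.86, 4.55, 3.53 and 2.84 on the log2 scale.

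Among the genes that passed whichever library was left out, Rdh10, an enzyme of retinoic acid synthesis (chr1:16095963-16122631, plus strand), was at 14.6 and 14.2 CPM in the controls and 341, 389 and 516 CPM in the leukemias (log2 difference 4.85, SE 0.52, adjusted p 0.00057). Ogdhl, a relative of the oxoglutarate dehydrogenase subunit of the citric acid cycle (chr14:33135205-33161006, plus strand), was at 1.4 and 0.932 CPM in GFP and 91.9, 97.2 and 101 CPM in leukemia libraries (log2 difference 6.36, SE 0.57, adjusted p 0.00017). Gstp1, a glutathione transferase, rose from 18.8 and 18.7 to 118, 118 and 164 CPM (log2 difference 2.83, SE 0.28, adjusted p 0.00033); its near-identical neighbour Gstp2 makes its counts uncertain. Cndp2, a dipeptidase, rose from 54.2 and 50.8 to 311, 300.1 and 345 CPM (log2 difference 2.60, SE 0.22, adjusted p 0.00016). Vegfa, the angiogenic growth factor (chr17:46153943-46169326, minus strand), was at 4.68 and 4.54 CPM in the thymocytes and 121, 141 and 93.7 CPM in the leukemias (log2 difference 4.68, SE 0.40, adjusted p 0.00016). Jdp2, a repressor of AP-1, was at 2.68 and 3 CPM in GFP and 91.5, 97.6 and 82.1 CPM in leukemia libraries (log2 difference 4.99, SE 0.52, adjusted p 0.00054).

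Hook2, a microtubule adaptor, and Cacng4, a calcium channel subunit, also rose in every fit, with log2 differences of 3.37 and 5.81. Atl2, which shapes the endoplasmic reticulum, fell from 450.0 and 446 to 111, 144 and 129.8 CPM, Cdk17, a neuronal-type kinase, from 299 and 304 to 79.2, 104 and 94.5 CPM and Tlcd2 from 1.28 and 1.38 to 0.0985, 0.0613 and 0.0614 CPM. In these 3 genes every leukemia was below both controls; Tlcd2 was near 0 in the leukemias, at a few counts in all. A pore-forming calcium channel gene, Cacna1c, rose from 0.68 and 1.42 to 62.4, 70.8 and 13.4 CPM (log2 difference 5.53, SE 1.26, adjusted p 0.0398). A beta subunit gene, Cacnb1, fell from 19.7 and 22.2 to 5.71, 6.13 and 5.65 CPM (log2 difference -1.84, SE 0.41, adjusted p 0.036). Cacna1c and Cacnb1 were the only calls among the 25 listed channel genes that were tested (8%, against 2.24% of all genes). Neither passed without either GFP library or without leukemia 1 or 2. Cacnb1 also lost its call without leukemia 3. Bank1, a B cell scaffold gene, rose from 5.24 and 8.14 to 89.6, 98.5 and 47.3 CPM (log2 difference 3.55, SE 0.68, adjusted p 0.017). It was the only 1 of 20 B cell markers to pass (5%, against 2.24% of all genes). Of the 20, 14 had a negative difference, and the median was -0.56. Summed levels of these markers, Bank1 included, were 333 and 222 CPM in the controls and 366, 144 and 295 CPM in the leukemias. The call of Bank1 was lost without either GFP library and without leukemia 1.

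Markers of other blood cells differed between the leukemias, although all were sorted as CD4+CD8+ cells. The 26 tested granulocyte genes summed to 8.32 and 41.1 CPM in the controls and to 1185, 31.9 and 38.5 CPM in leukemias 1, 2 and 3, and the 22 erythroid genes to 273 and 197 and to 1552, 515 and 400 CPM. Leukemia 1 was thus high for both; S100a8, a neutrophil protein, was at 223, 4.9 and 3.56 CPM in the 3 leukemias. No granulocyte gene passed and Epor alone of the erythroid genes did (4.55%, against 2.24% of all genes), with medians of 4.16 and 4.12. Their part in the differences above was not tested. Dendritic cell genes summed to 658 and 577 CPM in the controls and to 201, 132 and 1912 CPM in the leukemias, macrophage genes to 233 and 180 and to 224, 67.7 and 598 CPM, and genes of thymic stroma to 349 and 373 and to 281, 254 and 921 CPM, each highest in leukemia 3. None of the 24 macrophage, 20 dendritic or 17 stromal genes passed. Megakaryocyte genes summed to at most 34.9 CPM in any library. Cytotoxic and NK genes summed to 149 and 127 CPM in the controls and to 262, 178 and 413 CPM in the leukemias. Most members did not follow the sum: of 18 tested, 16 had a negative difference, and the median was -3.38. Without overlap, 13 were lower and 2 higher, as were 24.9% and 20.9% of all genes. Klra9, which fell, was the 1 of 18 cytotoxic and NK genes that passed (5.56%, against 2.24% of all genes). The granulocyte enzyme gene Elane was at 0 and 0.203 CPM in the controls and 2.17, 0.368 and 0.0614 CPM in the leukemias. Hba-a2, Gp6 and Klra4 were the markers at 0 in all 5 libraries. Without leukemia 1, and with the fit limited to the retroviral libraries (an alternative chosen after seeing these values), 85 genes rose and 20 fell.

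**Figure D4:**
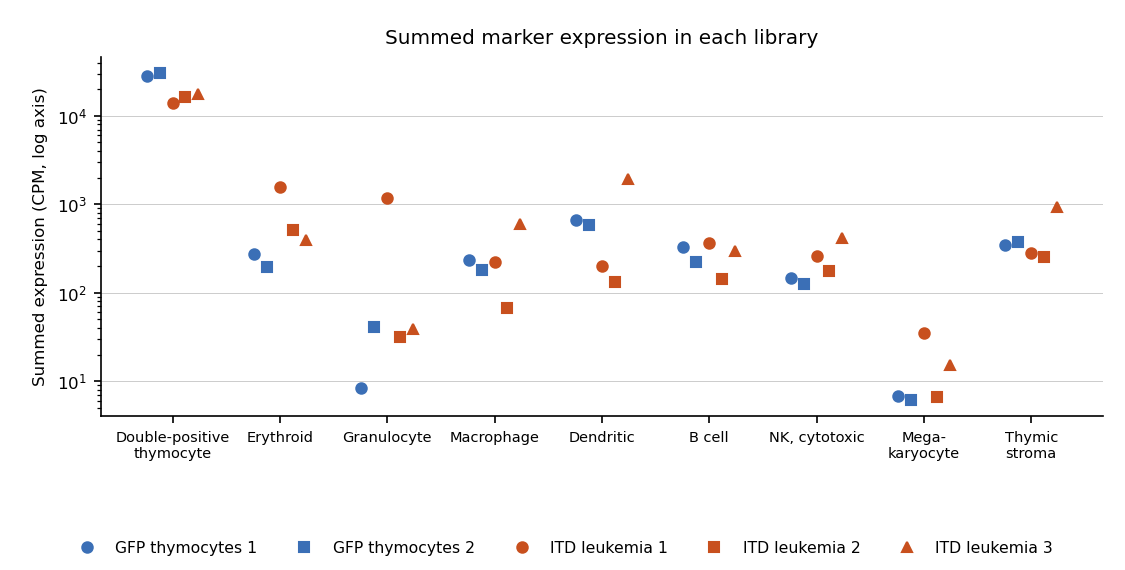
Summed expression of marker genes in each library (CPM, log axis) for double-positive thymocytes and 8 other cell types; blue are the GFP thymocytes and orange the leukemias. Granulocyte and erythroid markers are highest in leukemia 1 (1185 and 1552 CPM), and dendritic, macrophage and stromal markers in leukemia 3.

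The same contrast without Dnmt3a was available from libraries that share none of these samples: 4 FLT3-ITD leukemias and 2 GFP thymocyte samples from Mx1-cre+;Dnmt3a f/f donors. Dnmt3a itself was at 207 and 144 CPM in those thymocytes and 65.8, 127, 68.1 and 53 CPM in those leukemias, so its transcript was still counted; whether the counts include exons outside the deleted part is not known. There 3047 genes passed (19.6%), 1520 higher (9.8%) and 1527 lower (9.85%). Of the 209 genes that rose with Dnmt3a intact, 174 also rose without it, which is 83.3% of the first list and 11.4% of the second; of the 138 that fell, 104 also fell (75.4% and 6.81%). None passed in opposite directions, and 205 of the 209 and 132 of the 138 had the same sign. Of the 4 knockout leukemias, 2 belong to a later submission. The knockout group holds more leukemias, so the length of its list is not a measure of its effect. Both contrasts came from the same fit and share its estimate of each gene's spread, so their calls are not independent.

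Il2ra had log2 differences of 5.57 with Dnmt3a and 4.62 without it, Cish of 5.42 and 5.24, Sfrp2 of 8.78 and 9.63, Cd5 of -3.88 and -5.24, and Bcl6 of -4.35 and -5.52. Whether the 2 differences differ was tested by the interaction term, and no gene passed (lowest adjusted p 0.299; 838 genes at an unadjusted p below 0.05). DESeq2 called 81 genes and limma voom 0, and edgeR called 39 without leukemia 3. Among the 347 genes, 69 did not pass without Dnmt3a. Esrp1 was one of them, with 8.58 against 1.15, and Mum1l1 another, with 8.39 against -0.48; Vegfa passed in both at 4.68 and 2.43. Il3ra, lower in the leukemias with intact Dnmt3a, had a log2 difference of 0.67 without it that did not pass (adjusted p 0.17). None of these differences between genotypes passed the interaction test in the edgeR fit.

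**Figure D5:**
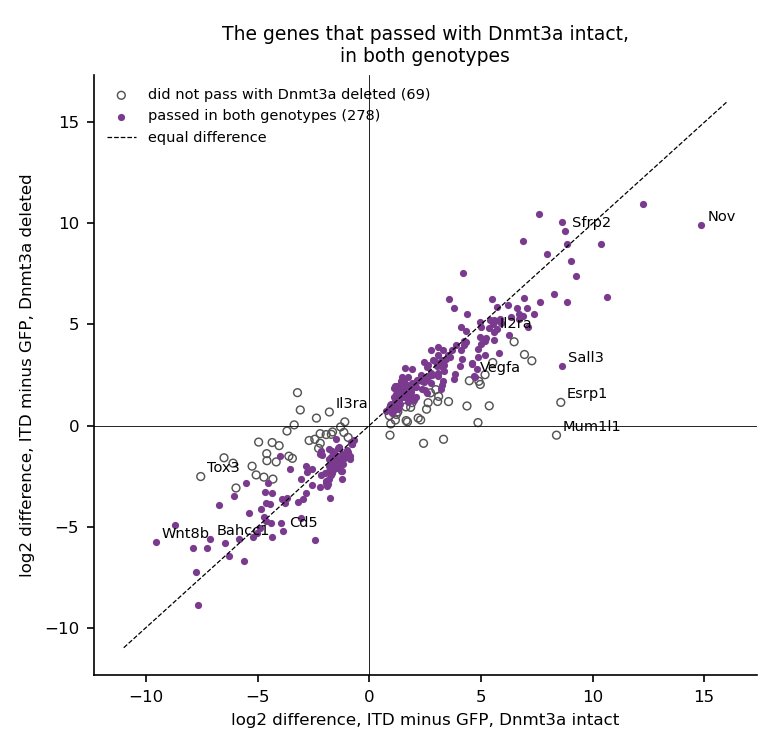
Each point is 1 of the 347 genes that passed with Dnmt3a intact, with its log2 difference (ITD minus GFP) there on the x axis and with Dnmt3a deleted on the y axis; the dashed line marks equal differences. Filled points (278) passed in both genotypes in the same direction and open points (69) did not pass with Dnmt3a deleted, among them Esrp1 and Mum1l1.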

How the data were processed

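The deposited gene table holds 17 libraries from 19 samples, since the 2 technical runs of each control share a column. Per the submitters' processing notes, TopHat2 2.0.10, Cufflinks 2.1.1 and Cuffdiff 2.1.1 (2.2.1 for the second submission) were used with mm9; no source used here gives the strand setting, so overlapping, antisense and near-identical genes (Klra, Gimap, Gstp1, hemoglobins) are uncertain. The authors' values are estimated counts, of which 98.34% were whole within 0.001, and were rounded.

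All 17 libraries in 7 groups were fitted with edgeR 4.0.16 (R 4.3.3; TMM, filterByExpr, quasi-likelihood test, two-sided, Benjamini-Hochberg over 15508 of 23458 genes). The contrast was the FLT3-ITD mean minus the GFP mean with Dnmt3a intact, and the scripts were tested on simulated data. Named genes were, leaving out predicted names, the 12 largest rises and falls at 5 CPM or more in the higher group, the 10 largest of each at 50 CPM or more, genes passing in every fit without 1 library, list members that passed and a fixed set of anchor genes, some results of which are not reported here. Members, lists and rules were chosen with earlier results of these data known. Alternatives were DESeq2 1.42.0, limma 3.58.1 (voom), other size factors, no filter, other sets of libraries, a replicate block, an Xist covariate and leaving out each library. The replicate numbers were not taken to pair the samples, since no label says that a number marks a shared source. Ratios at genes with 1 to 3 counts have exact 95% intervals, which, like floors of 3 counts, cover counting error only.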

Additional observations from a re-analysis of the deposited data

How the results depend on the processing

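The numbers of genes that passed moved with the method. Against 209 rises and 138 falls, DESeq2 gave 818 and 587 (208 of the 209 and 137 of the 138 among them), limma voom 336 and 540 (180 and 134 among them), and the fit of these 5 libraries alone 534 and 370. The Xist covariate gave 126 and 55, leukemia 3 alone (the leukemia that expresses Xist; a single library whose spread is borrowed from the other groups) 134 and 19, and the retroviral libraries without leukemia 1, chosen after seeing the data, 85 and 20. Leaving out 1 library gave 14 to 342 rises and 9 to 265 falls. With the replicate number as a block, 281 rose and 286 fell; the numbers only name the samples. Same-numbered samples correlated in their deviations at -0.187 (number 1) and 0.0953 (number 2), and with 2 controls the deviations of one mirror those of the other. The interaction with Dnmt3a gave 0 genes in edgeR, 81 in DESeq2 and 0 to 39 when 1 library was left out. Other size factors gave 213 and 141, no filter 199 and 126, the retroviral libraries 205 and 123, and those from thymus 146 and 137, of which 108 and 62 were among the 209 and 138. The cause of these shifts was not tested. Fits that leave samples out also hold fewer samples, and the part of that was not tested either.

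None of the 72 named genes that passed changed sign under any alternative run. These genes had passed, without overlap between the groups, in the same libraries. Their stable sign was therefore largely given by how they were chosen. Signs turned at genes that had not passed. Kit turned to 0.20 (thymus only) and 0.51 (Xist-expressing libraries) and ran from -1.07 to 0.19 when 1 library was left out. Flt3 ran from -0.33 to 1.13 when 1 library was left out. Under the Xist covariate Dnmt3a turned to 0.025, Rag1 to 0.079, Rag2 to 0.10 and Xist to 0.68. Depth limits the genes near 0 on 1 side, whose fold changes are bounds or wide intervals.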

Other observations

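Leukemia 3 alone held high levels of the neighbouring imprinted genes H19 and Igf2. H19, a noncoding RNA, was at 1.92 and 1.34 CPM in the GFP thymocytes and at 8.96, 11.6 and 1264 CPM in leukemias 1, 2 and 3. Igf2, a fetal growth factor, was at 0.32 and 0.041 CPM in the controls and 0.394, 0.184 and 414 CPM in the leukemias. Neither passed in edgeR (adjusted p 0.099 and 0.18), and none of 28 imprinted genes did (median 0.03). Igf2r, the receptor that clears IGF2, was at 186 and 180.4 CPM in the controls and 146, 213 and 143 CPM in the leukemias. These genes were singled out after their values were seen, and thymic stroma markers were also highest in leukemia 3; their part in the values was not tested.

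Of 36 T-lineage transcription factors 2 fell (Tox3 and Satb1) and none rose (5.56% passed, against 2.24% of all genes), the median was -0.69, and 23 were lower without overlap, as were 24.9% of all genes. Of 36 receptor tyrosine kinase genes Egfr alone passed (2.78%, median 0). Of 19 developmental transcription factors that were tested Sall3 alone passed (5.26%, median 2.16, most of them near 0 CPM).

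No chromosome stood apart in the leukemias at the level of its median. Over genes of at least 10 CPM, the autosomal medians of log2 CPM relative to the GFP mean reached at most -0.103 (chromosome 15, leukemia 3), and chromosome X was at -0.113 in leukemia 1. Myc, on chromosome 15, rose, and all 3 leukemias were above both controls. A change in a small share of the cells or over part of a chromosome would not be seen in such medians.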
